A study of Homo sapiens with 9 samples.

Results

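The genes described here are those whose symbols consist of CD and a number, with or without a suffix, such as CD63 or CD300LF. CD stands for cluster of differentiation, the numbering given to leukocyte surface molecules as antibodies against them were grouped. Genes were taken from the symbols of the array's annotation, 71 of which matched the pattern. Of these, 8 genes, CD14, CD44, CD48, CD68, CD84, CD86, CD180 and CD247, were left out by name, which left 63 of 14778 named genes. Of these, 62 are protein-coding and 1, CD99P1, is a transcribed pseudogene. The label of surface antigens did not hold for every member. CD2AP and CD2BP2 encode intracellular proteins and CD5L a secreted one.

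Total RNA was profiled on Affymetrix whole-transcript arrays in 9 samples of HL-60 clone 15, a subline of the human promyelocytic leukaemia line HL-60 that is used as a model of eosinophil development. In 3 samples the line had been transduced with a lentivirus encoding RhoH and was given 100 nM 4-hydroxytamoxifen (4-OHT), which switches the construct on (induced RhoH). Another 3 carried the RhoH construct without 4-OHT (uninduced RhoH), and 3 carried a GFP construct with 100 nM 4-OHT (GFP). RhoH is an atypical small GTPase of haematopoietic cells, GFP a fluorescent marker protein, and 4-OHT the active metabolite of tamoxifen. All 3 groups thus share 1 parental clone and a lentiviral transduction, and the labels do not say whether a transduced line was a clone or a pool. GFP cells without 4-OHT were not analysed here, so the drug, the construct and the 2 cell populations cannot be told apart. The design text calls the samples biological replicates.

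CD molecules do very different things. Some are receptors and ligands with which leukocytes activate or restrain each other, some are adhesion or scavenger receptors, and others, the tetraspanins, have 4 membrane-spanning segments and organise partner proteins in the membrane and in endosomes and granules. In the myeloid lineage many of them are gained or lost as progenitors mature, which is why they serve as markers of lineage and stage. An array reads their RNA, not the protein at the cell surface.

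The values are log2 signals as the authors deposited them, and a difference of 1 on this scale is a factor of 2 in signal. Brightness of different probe sets depends on their probes, so signals are compared between arrays for 1 gene and not between genes. The median probe set signal of the 9 arrays was 5.43 to 5.55. The median SD between the 3 arrays of a group over the 63 members was 0.162 for induced RhoH, 0.108 for uninduced RhoH and 0.086 for GFP. An alternative fit below weighted each array by its estimated precision. The weights of replicates 1 to 3 were 0.334, 1.49 and 0.275 in induced RhoH and 0.267, 1.25 and 2.58 in uninduced RhoH. In GFP they were 1.84, 1.77 and 2.61. Among the promyelocyte markers, MPO, AZU1, PRTN3 and CTSG were measured. Averaged per array, these 4 granule genes had log2 signals of 11.8 to 12.2 in induced RhoH, 12.3 in each uninduced RhoH array and 10.6 in each GFP array. EPX, the eosinophil marker measured, had 8.85 to 9.36 in induced RhoH, 9.43 to 10.1 in uninduced RhoH and 7.09 to 7.19 in GFP. Against GFP, all 4 granule genes and EPX were higher in induced and in uninduced RhoH (limma adjusted p under 0.05). With 4-OHT in RhoH cells, CTSG alone of these markers passed (log2 fold change -0.83, adjusted p = 0.00703). Its call was lost in 2 of 19 alternatives, with only the 6 arrays compared (0.0518) and without both RhoH replicate 1 arrays (0.0541). MPO (-0.26, 0.109), PRTN3 (-0.15, 0.752) and EPX (-0.75, 0.056) were lower without passing, and AZU1 was at 0.05 (0.932). The part of these markers in the differences below was not tested. Of the 6 eosinophil markers listed, EPX was the 1 measured. In such bulk samples, fewer cells of a type and less RNA per cell cannot be told apart.

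The RHOH probe set was highest in the arrays labelled GFP, which goes against the labels. It read 5.60, 5.73 and 5.45 in the arrays labelled induced RhoH, 5.23, 5.25 and 5.15 in those labelled uninduced RhoH, and 5.90, 5.94 and 5.94 in those labelled GFP. The arrays labelled induced RhoH lay above those labelled uninduced and below those labelled GFP. The limma log2 fold change was 0.38 for induced against uninduced RhoH (adjusted p = 0.0451, and 0.00542 to 0.192 over the alternatives tried, 12 of 19 of them without the call, among them leaving out any array but induced RhoH replicate 3). It was -0.33 for induced RhoH against GFP (adjusted p = 0.0717) and -0.72 for uninduced RhoH against GFP (adjusted p = 0.00042). Whether the probe set reads RNA from the construct is not given in the sources used here. All directions below are therefore those of the arrays as labelled, and the group names stand for the arrays so labelled.

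With 4-OHT in RhoH cells, 9 of the 63 members passed the threshold, a limma p adjusted over all 14778 named genes under 0.05. Higher were 8 of them, against 3.02% of all named genes, and 1 was lower, against 0.751% of all named genes. The 8 were CD63, CD53, CD82, CD5L, CD300LF, CD58, CD300LB and CD101, and the lower one was CD320. The median log2 fold change was 0.031 over all members and -0.004 over all named genes, and 54 members did not pass. In either direction, 3.78% of named genes were called. For 18 members no array of one group reached into the range of the other, against 14.5% of all named genes. At an unadjusted p under 0.05, 17 members passed, against 14.5% of all named genes. The split over all named genes, 447 higher and 111 lower, depended on the scaling and was 470 and 197 after median centring and 588 and 365 after quantile normalization again, with 8 and 1 members under both.

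In induced RhoH against GFP, both with 4-OHT, 10 members passed, against 4.49% of all named genes. The count was 6 without induced RhoH replicate 2 and 4, 4 and 5 without GFP replicates 1, 2 and 3, and over all named genes 664 genes passed, with 302, 279 and 285 without these GFP arrays. CD99, CD24 and CD320 were higher in induced RhoH (3 members, with 1.74% of all named genes called higher). CD101, CD63, CD58, CD5L, CD300C, CD300A and CD300LB were lower (7 members, with 2.75% called lower). After quantile normalization again the split was 5 higher and 7 lower, since CD151 (adjusted p = 0.0199) and CD83 (0.0305) were then called. The median over members was 0.05 and over all named genes 0.03. Ranges did not overlap for 24 members, against 22.5% of all named genes, and 20 members had an unadjusted p under 0.05, against 16.4%.

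Uninduced RhoH against GFP differs in both construct and drug. In this comparison 18 members passed, against 15.3% of all named genes. Of these, 4 were higher in uninduced RhoH (6.01% of all named genes) and 14 lower (9.27%). The median over members was 0.06 and over all named genes 0.05, and ranges did not overlap for 31 members, against 37.3% of all named genes. An unadjusted p under 0.05 was seen in 28 members, against 25.8%. Each group enters 2 of these comparisons, so they are not independent of each other, and their values are given side by side. A test for any difference among the 3 groups called 18 members, with a background of 12.4%. Of the members, 45 passed in none of the 3 comparisons. Their signals spanned 0.203 (CD93) to 1.32 (CD52) over the 9 arrays, with a median span of 0.497. All 18 members called in at least 1 comparison lay above the dimmest 25% of named genes, which held 16 members.

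**Figure D1:**
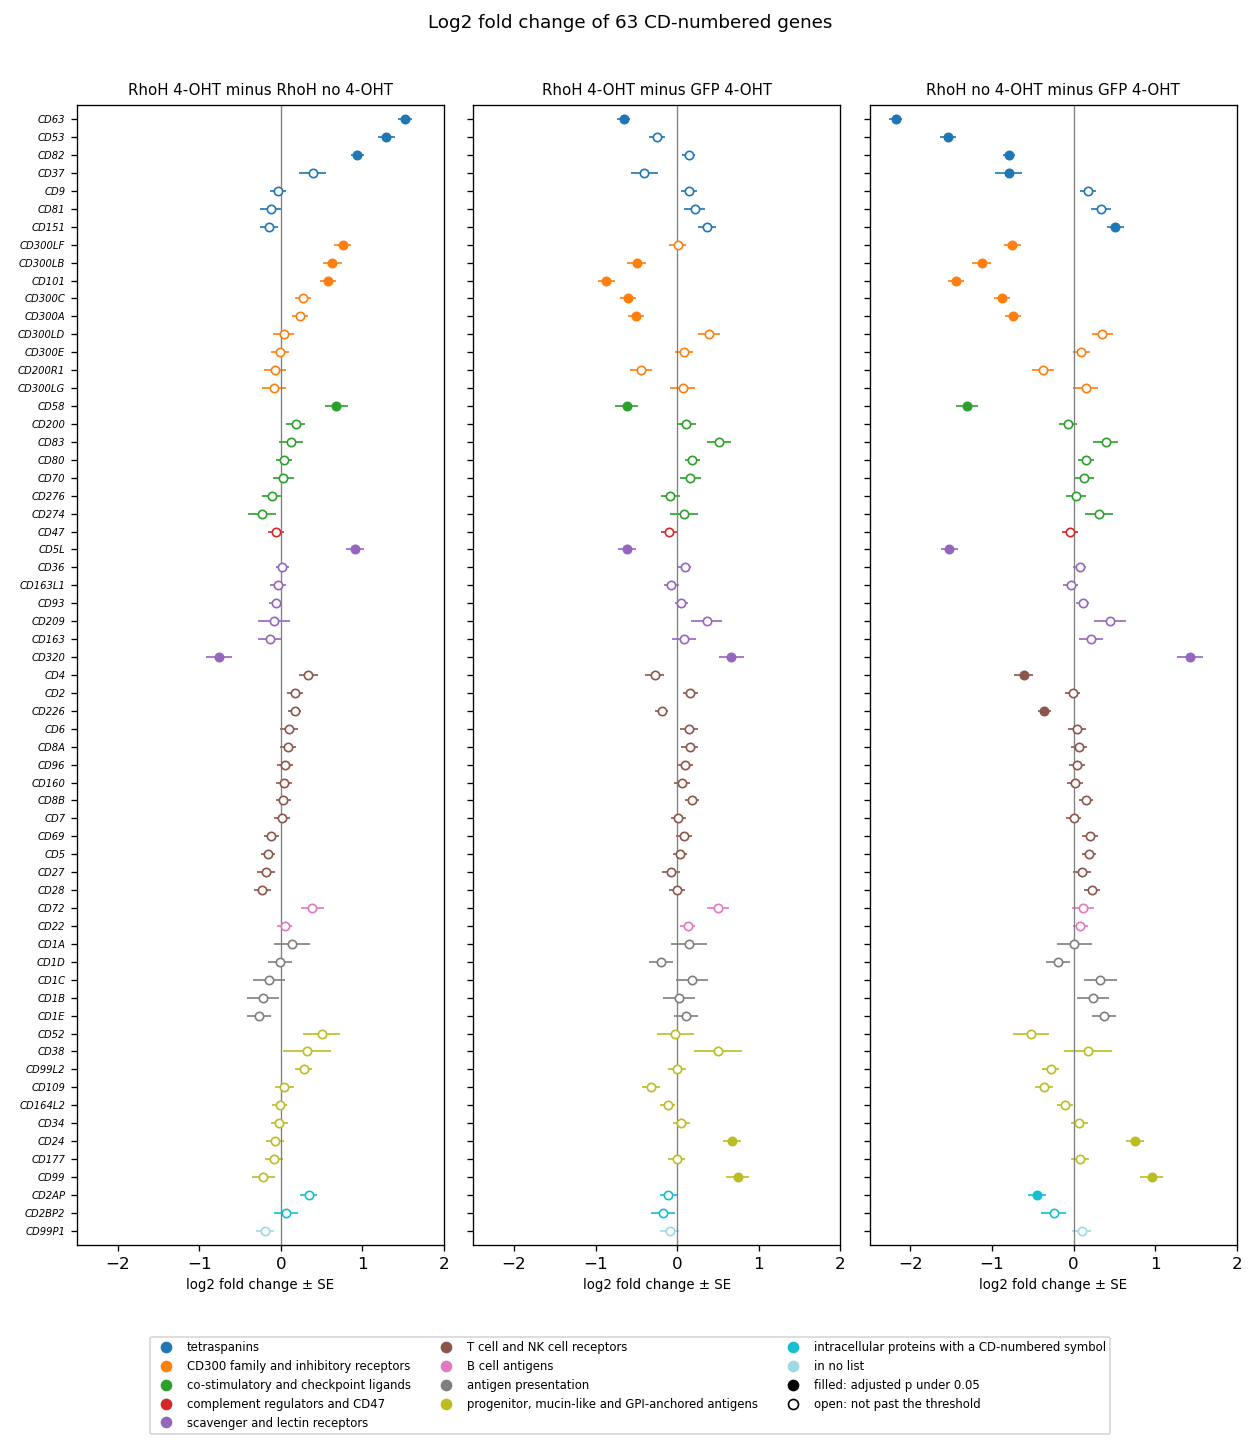
Log2 fold change of each of the 63 members (x axis, with the standard error of the limma fit as bars) in the 3 comparisons, grouped by role and coloured by role. Filled points passed an adjusted p of 0.05. Filled points number 9, 10 and 18 in the 3 comparisons, and the highest and lowest are both CD63, at 1.52 and -2.18.

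Tetraspanins gave CD63 and CD53, whose fold changes with 4-OHT were the highest among the members. With 4-OHT in RhoH cells, 3 of 7 rose and 0 fell, against 3.02% and 0.751% of all named genes. The other 4 did not pass, and the median log2 fold change was 0.39. Against GFP, 0 were higher and 1 lower in induced RhoH (median 0.14), against 1.74% and 2.75% of all named genes. In uninduced RhoH against GFP, 1 was higher and 4 were lower (median -0.79), against 6.01% and 9.27%.

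CD63 is a tetraspanin of late endosomes, lysosomes and the granules of leukocytes. Its log2 signal was 8.53, 8.41 and 8.53 in induced RhoH, 6.89, 6.97 and 7.05 in uninduced RhoH and 9.17, 9.11 and 9.16 in GFP. No 2 of the groups overlapped, and the GFP arrays were the highest. CD63 was 2.87-fold higher in induced than in uninduced RhoH (log2 fold change 1.52, SE 0.08, adjusted p = 1.19e-05). It was lower than in GFP by a log2 fold change of -0.66 in induced RhoH (adjusted p = 0.00153) and of -2.18 in uninduced RhoH (4.53-fold, adjusted p = 2.46e-07).

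CD53, a tetraspanin of leukocytes, had log2 signals of 10.70, 10.34 and 10.40 in induced RhoH, 9.17, 9.18 and 9.21 in uninduced RhoH, and 10.71, 10.71 and 10.77 in GFP. The uninduced arrays stood well below both other groups. It was 2.45-fold higher in induced than in uninduced RhoH (log2 fold change 1.29, SE 0.10, adjusted p = 0.000108) and lower in uninduced RhoH than in GFP by -1.54 (adjusted p = 6.61e-06). Induced RhoH and GFP differed by -0.25, which did not pass (adjusted p = 0.263) but did in 3 of 19 alternatives, without induced RhoH replicate 1, the array nearest to GFP (-0.36, adjusted p = 0.0417), without both RhoH replicate 1 arrays (0.0238) and with array weights (-0.33, adjusted p = 0.0307).

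CD82, also known as KAI1, is a tetraspanin known as a suppressor of metastasis. Its log2 signal was 7.85, 7.86 and 7.87 in induced RhoH, 6.97, 6.87 and 6.93 in uninduced RhoH, and 7.82, 7.65 and 7.68 in GFP. Here too the uninduced arrays stood apart, and induced RhoH lay slightly above GFP. CD82 rose 1.91-fold with 4-OHT (0.93 on the log2 scale, SE 0.08, adjusted p = 0.000178) and was lower in uninduced RhoH than in GFP by -0.79 (adjusted p = 0.000101), with induced RhoH and GFP 0.14 apart (adjusted p = 0.423).

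The stretches of 250 bases before the starts of these 3 genes are shown because their RNAs rose together with 4-OHT. They are from RefSeq, GRCh38.p14, written 5′ to 3′ with the start following the last base. Capitals mark matches, on either strand, to 6 motifs that were searched. TGANTCA is the site bound by the transcription factor AP-1. The core bound by PU.1 and other ETS factors was searched as GAGGAA. GC boxes, bound by factors of the SP family, were searched as GGGCGG, and the TATA box, found close to the start of some genes, as TATAAA. The CCAAT box is named by its letters. A half-site of the oestrogen receptor, which binds 4-OHT, was searched as AGGTCA. No 2 matches overlap.
CD63, chr12:55729010-55729259, minus strand: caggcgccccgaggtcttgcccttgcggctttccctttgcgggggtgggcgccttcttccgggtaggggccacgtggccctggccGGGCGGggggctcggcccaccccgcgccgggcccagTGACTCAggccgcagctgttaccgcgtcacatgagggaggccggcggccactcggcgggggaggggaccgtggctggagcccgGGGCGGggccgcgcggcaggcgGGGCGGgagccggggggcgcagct
CD53, chr1:110870960-110871209, plus strand: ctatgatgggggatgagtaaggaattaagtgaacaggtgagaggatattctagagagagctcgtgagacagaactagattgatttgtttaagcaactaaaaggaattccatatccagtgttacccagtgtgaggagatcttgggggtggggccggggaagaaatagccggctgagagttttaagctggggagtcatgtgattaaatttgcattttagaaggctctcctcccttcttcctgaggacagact
CD82, chr11:44565413-44565662, plus strand: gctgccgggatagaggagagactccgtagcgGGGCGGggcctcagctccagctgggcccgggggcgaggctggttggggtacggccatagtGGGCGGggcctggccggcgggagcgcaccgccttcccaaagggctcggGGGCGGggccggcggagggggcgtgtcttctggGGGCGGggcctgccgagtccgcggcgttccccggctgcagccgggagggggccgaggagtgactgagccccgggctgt
CD63 held GC boxes at positions -165, -46 and -24 and an AP-1 match at -129, counted to the first base of the match from the start. CD82 held GC boxes at -219, -159, -111 and -78, while CD53 held no match to the 6 motifs. Among 35116 RefSeq stretches of this length, 42.6% held a GC box, 6.57% an AP-1 match, 23.6% a GAGGAA, 10.7% a TATAAA, 32% a CCAAT and 12.1% an AGGTCA. Of the 63 members 44 had an entry, of which 14 held a GC box, 3 an AP-1 match, 17 a GAGGAA, 5 a TATAAA, 11 a CCAAT and 5 an AGGTCA. Of the 8 genes that rose, 7 had an entry, with a GC box in 3, GAGGAA in 3, AP-1, TATAAA and CCAAT in 1 each and AGGTCA in 0. A match is a run of letters and not a binding site.

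CD37, found mainly on B cells and other leukocytes, had 7.02, 6.64 and 6.94 in induced RhoH, 6.19, 6.53 and 6.69 in uninduced RhoH, and 6.99, 7.35 and 7.46 in GFP. The uninduced arrays lay below all GFP arrays (log2 fold change -0.80, adjusted p = 0.00879), and induced RhoH overlapped both other groups. CD151, a partner of laminin-binding integrins, ran the other way, with 9.12, 9.11 and 9.46 in induced RhoH, 9.30, 9.42 and 9.41 in uninduced RhoH, and 8.84, 8.94 and 8.82 in GFP. It was higher in uninduced RhoH than in GFP by 0.51 (adjusted p = 0.00889), and induced RhoH did not pass against GFP (0.37, adjusted p = 0.0989). CD81 and CD9, both widely expressed tetraspanins, had log2 fold changes of -0.12 to 0.34 in the 3 comparisons, none past the threshold. CD81 passed for uninduced RhoH against GFP in 3 alternatives, which were array weights (adjusted p = 0.00229), quantile normalization again (0.00735) and the fit without both RhoH replicate 1 arrays (0.0254).

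**Figure D2:**
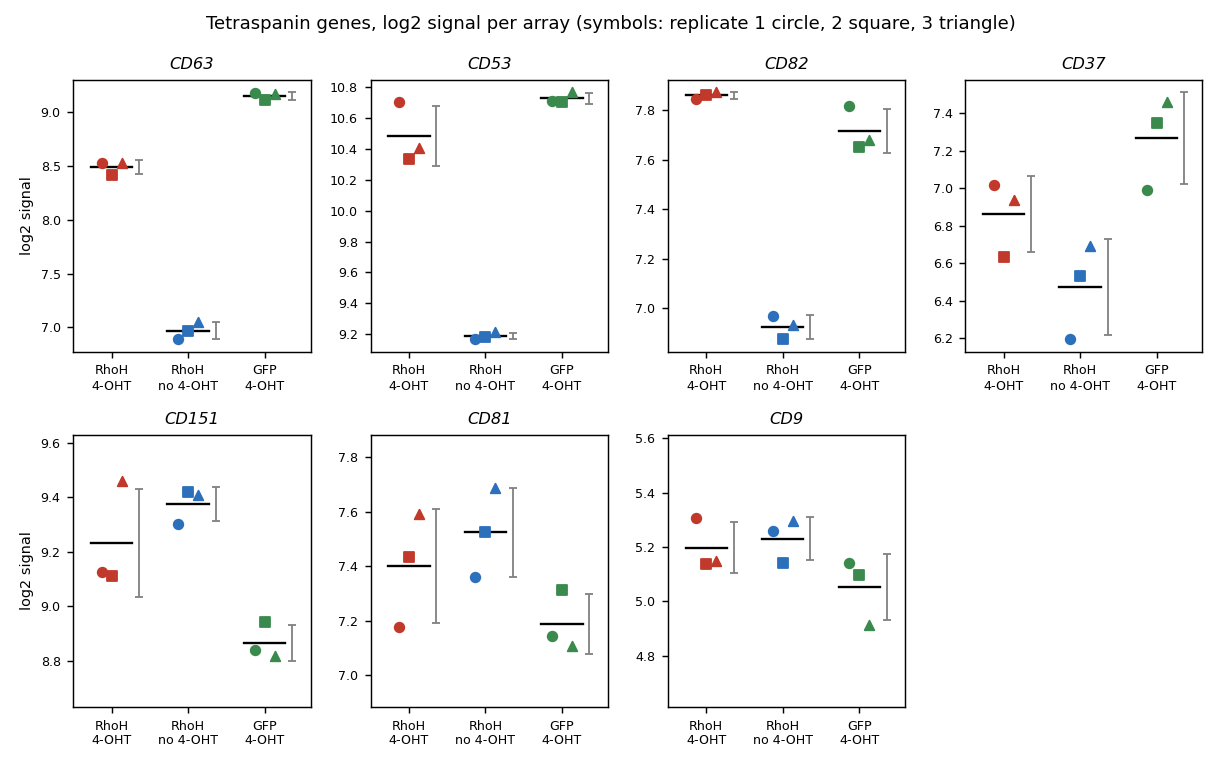
Log2 signal (y axis, scaled per gene) of the 7 tetraspanin genes on each of the 9 arrays by group, with the group mean as a line and its SD (n = 3) as a bar beside it. Uninduced RhoH arrays are the lowest for CD63, CD53 and CD82, and for CD151 the GFP arrays are the lowest.

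The CD300 molecules are paired immunoglobulin-like receptors of myeloid cells, some inhibitory and some activating. They were listed with the inhibitory receptors CD101 and CD200R1. Of these 9 genes 3 rose with 4-OHT in RhoH cells and 0 fell, against 3.02% and 0.751% of all named genes. Their median log2 fold change was 0.23. In induced RhoH against GFP, 0 were higher and 4 lower (median -0.45), against 1.74% and 2.75% of all named genes. In uninduced RhoH against GFP, 0 were higher and 5 lower (median -0.74), against 6.01% and 9.27%.

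CD300LF, an inhibitory member that recognises lipids, had 9.44, 9.39 and 9.59 in induced RhoH, 8.51, 8.86 and 8.77 in uninduced RhoH, and 9.50, 9.45 and 9.45 in GFP. The uninduced arrays were the lowest, and induced RhoH and GFP overlapped. Induced exceeded uninduced RhoH 1.69-fold (log2 fold change 0.76, SE 0.10, adjusted p = 0.00344), and CD300LF was lower in uninduced RhoH than in GFP by -0.75 (adjusted p = 0.000813). Induced RhoH and GFP were 0.01 apart (SE 0.10, adjusted p = 0.985).

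CD300LB, an activating member, had 6.64, 6.57 and 6.96 in induced RhoH, 6.17, 5.93 and 6.18 in uninduced RhoH, and 7.23, 7.21 and 7.22 in GFP. The 3 groups did not overlap. It rose 1.54-fold with 4-OHT (log2 fold change 0.63, adjusted p = 0.0154) and was lower than in GFP by -0.50 in induced RhoH (adjusted p = 0.0411) and -1.13 in uninduced RhoH (adjusted p = 0.000120). The rise did not pass without uninduced RhoH replicate 2 (adjusted p = 0.0561) or when only the 6 arrays compared were fitted (0.0974). The difference of induced RhoH from GFP was lost when any of induced RhoH replicates 1 and 2, uninduced RhoH replicate 3 and the 3 GFP arrays was left out (0.0636 to 0.147), and in 9 of 19 alternatives in all.

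CD101, an inhibitory receptor of myeloid and T cells, had 6.72, 6.50 and 6.85 in induced RhoH, 6.04, 6.15 and 6.15 in uninduced RhoH, and 7.57, 7.56 and 7.54 in GFP. Here too the groups did not overlap, and GFP was the highest. It rose 1.49-fold with 4-OHT (log2 fold change 0.58, SE 0.10, adjusted p = 0.0105), a call lost in the fit of only the 6 arrays compared (0.0787) and in that without both RhoH replicate 1 arrays (0.0581). Against GFP it was lower by -0.87 in induced RhoH (adjusted p = 0.000957) and by -1.44 in uninduced RhoH (2.72-fold, adjusted p = 7.79e-06).

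CD300C, an activating member, had 7.58, 7.43 and 7.49 in induced RhoH, 7.40, 7.06 and 7.23 in uninduced RhoH, and 8.10, 8.09 and 8.12 in GFP. All 6 RhoH arrays lay below the GFP arrays. The log2 fold change against GFP was -0.61 in induced RhoH (SE 0.10, adjusted p = 0.00726) and -0.87 in uninduced RhoH (adjusted p = 0.000217), and that with 4-OHT in RhoH cells was 0.27 (adjusted p = 0.218).

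CD300A, an inhibitory member, had 6.72, 6.54 and 6.76 in induced RhoH, 6.51, 6.30 and 6.53 in uninduced RhoH, and 7.13, 7.15 and 7.26 in GFP. Again all 6 RhoH arrays lay below GFP. It was lower by -0.51 in induced RhoH (SE 0.10, adjusted p = 0.0180) and by -0.74 in uninduced RhoH (adjusted p = 0.000648). The first of these calls was lost without induced RhoH replicate 2 (0.0526) or GFP replicate 1 (0.0636), 2 (0.0741) or 3 (0.0976).

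The other 4 genes of this list, CD200R1, CD300LD, CD300LG and CD300E, passed in none of the comparisons. CD200R1, the receptor through which CD200 restrains myeloid cells, had log2 fold changes of -0.45 in induced RhoH against GFP (adjusted p = 0.108) and -0.37 in uninduced RhoH against GFP (0.101). Its second value passed without GFP replicate 2 (0.0345), with array weights (0.0418) and after quantile normalization again (0.0369). CD300LD ran the other way in uninduced RhoH against GFP (0.35, adjusted p = 0.116) and passed in 3 alternatives, among them without induced RhoH replicate 1 (0.0430) and with array weights (0.0271). In the RefSeq order of genes on chromosome 17, 6 of the 7 CD300 members lie in one run, with CD300A, CD300LB, CD300C, CD300LD, CD300E and CD300LF in that order and at most 1 other protein-coding gene between neighbours. Of these, CD300A, CD300LB, CD300C and CD300LF passed in at least 1 comparison, and CD300LD and CD300E in none. Of the monocyte markers, CSF1R, FCN1 and LYZ were measured. Their array means were 9.06 to 9.18 in induced RhoH, 8.92 to 9.09 in uninduced RhoH and 9.12 to 9.31 in GFP. The only call was FCN1, lower in uninduced RhoH than in GFP by -0.54 (adjusted p = 0.00929). In that comparison CSF1R was at -0.31 (0.0922) and LYZ ran the other way, at 0.22 (0.0934). The part of these markers in the CD300 differences was not tested.

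**Figure D3:**
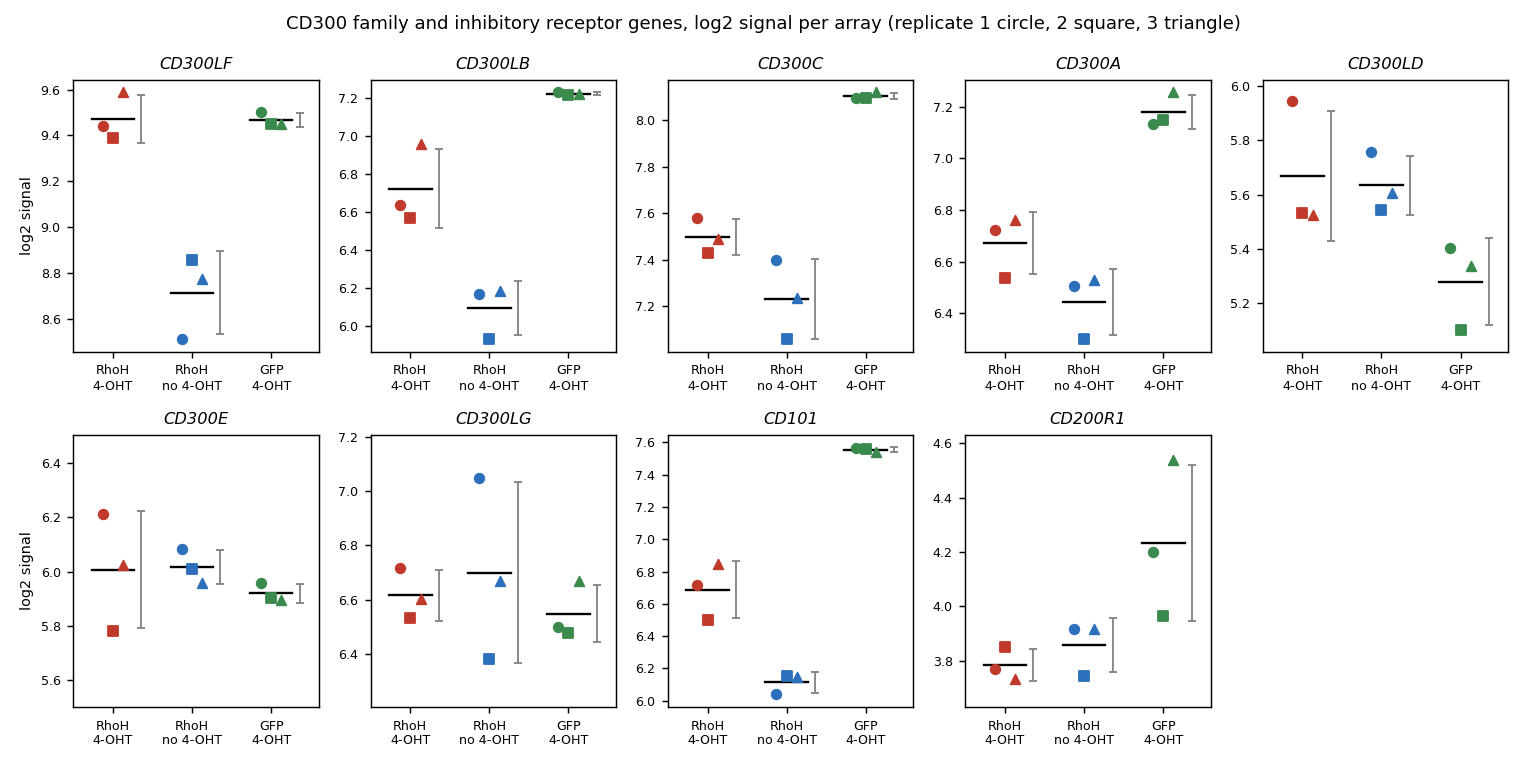
Log2 signal (y axis, scaled per gene) of the CD300 family and inhibitory receptor genes on each array by group, with the group mean as a line and its SD (n = 3) as a bar beside it. For CD101, CD300A, CD300C and CD300LB the GFP arrays are the highest, while for CD300LF the induced RhoH and GFP arrays overlap.

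Among 7 co-stimulatory and checkpoint ligands, 1 rose with 4-OHT in RhoH cells, against 3.02% of all named genes (median log2 fold change 0.04). Lower than in GFP was 1 in induced RhoH (median 0.11, against 2.75%) and 1 in uninduced RhoH (median 0.13, against 9.27%). In each case the gene was CD58, the ligand of CD2 on T cells. It had 7.80, 7.67 and 7.58 in induced RhoH, 6.68, 7.08 and 7.25 in uninduced RhoH, and 8.37, 8.22 and 8.32 in GFP. The groups did not overlap, and the uninduced arrays were the most spread.

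CD58 rose 1.60-fold with 4-OHT (log2 fold change 0.68, SE 0.14, adjusted p = 0.0231). That call was lost without induced RhoH replicate 1 (0.0679) or 2 (0.0593), uninduced RhoH replicate 2 (0.0530) or GFP replicate 3 (0.0513), in the fit of 6 arrays (0.115) and over all probe sets (0.0654). Against GFP it was lower by -0.62 in induced RhoH (adjusted p = 0.0317), a call lost in 7 of 19 alternatives, namely over all probe sets and without induced RhoH replicate 2 or 3, uninduced RhoH replicate 2 or any GFP array (0.0530 to 0.131). The difference of uninduced RhoH from GFP was -1.30 (2.46-fold, adjusted p = 0.00013).

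The other 6 ligands passed nowhere. CD83, a marker of mature dendritic cells, had 7.87, 7.88 and 8.48 in induced RhoH, 7.90, 7.93 and 8.03 in uninduced RhoH, and 7.60, 7.59 and 7.50 in GFP. All RhoH arrays lay above GFP, with log2 fold changes of 0.52 in induced RhoH (adjusted p = 0.0966) and 0.39 in uninduced RhoH (0.121). The first passed in 2 alternatives, with array weights (0.0369) and after quantile normalization again (0.0305). The second passed in 4, without induced RhoH replicate 3 (0.00535), the array that stood highest, with only the 6 arrays compared (0.00775), with array weights (0.00213) and after quantile normalization again (0.0309). CD274, the checkpoint ligand PD-L1, had log2 fold changes of -0.23, 0.08 and 0.31 in the 3 comparisons, with adjusted p from 0.297 to 0.861.

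CD47, which signals to SIRPA on phagocytes to prevent engulfment, was among the 6 members whose probe sets were brightest, which says nothing of its abundance beside other genes. Its arrays read 11.51, 11.51 and 11.22 in induced RhoH, 11.38, 11.50 and 11.52 in uninduced RhoH, and 11.53, 11.52 and 11.50 in GFP. The 3 groups overlapped, with log2 fold changes of -0.06, -0.11 and -0.05 and adjusted p of 0.893, 0.650 and 0.803.

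Of the 7 genes listed as scavenger and lectin receptors, 1 rose and 1 fell with 4-OHT in RhoH cells (median -0.07). Against GFP, 1 was higher and 1 lower both in induced RhoH (median 0.09) and in uninduced RhoH (median 0.11). Over all named genes, 3.02% rose and 0.751% fell with 4-OHT. Against GFP, 1.74% were higher and 2.75% lower in induced RhoH, and 6.01% and 9.27% in uninduced RhoH. The genes called in the list were CD5L and CD320 throughout, and they moved in opposite directions.

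CD5L, a secreted scavenger protein of macrophages, had 7.32, 7.22 and 6.91 in induced RhoH, 6.33, 6.19 and 6.21 in uninduced RhoH, and 7.79, 7.72 and 7.78 in GFP. The groups did not overlap, and GFP was the highest. It rose 1.88-fold with 4-OHT (log2 fold change 0.91, SE 0.11, adjusted p = 0.00143). It was lower than in GFP by -0.61 in induced RhoH (adjusted p = 0.0114, and 0.0592, 0.0502 and 0.0597 without GFP replicates 1, 2 and 3) and by -1.52 in uninduced RhoH (adjusted p = 1.02e-05).

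CD320, the receptor that takes up vitamin B12 bound to transcobalamin, had 7.90, 8.30 and 8.65 in induced RhoH, 9.09, 9.05 and 9.0 in uninduced RhoH, and 7.72, 7.57 and 7.57 in GFP. Uninduced RhoH was the highest, and the induced arrays were widely spread between the others. CD320 fell by 0.76 on the log2 scale with 4-OHT in RhoH cells (SE 0.16, adjusted p = 0.0270). This call was lost in 10 of 19 alternatives, among them leaving out induced RhoH replicate 2 (0.0664), any uninduced RhoH array (0.0794 to 0.0842) or any GFP array (0.0538 to 0.0573). Induced RhoH exceeded GFP by 0.67 (adjusted p = 0.0448), which was lost in 11 of 19, among them leaving out any array but induced RhoH replicate 1 (0.0561 to 0.174). Uninduced RhoH exceeded GFP by 1.43 (2.69-fold, adjusted p = 0.000195), in every alternative run.

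The same 250 bases before the start are given for CD5L and CD320, the pair that moved oppositely. They were searched for the same motifs and are marked in the same way.
CD5L, chr1:157841809-157842058, minus strand: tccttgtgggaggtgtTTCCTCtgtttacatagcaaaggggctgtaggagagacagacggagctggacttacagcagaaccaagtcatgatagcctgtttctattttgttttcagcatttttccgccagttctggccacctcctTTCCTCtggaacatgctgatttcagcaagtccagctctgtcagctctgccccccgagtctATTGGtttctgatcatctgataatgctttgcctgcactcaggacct
CD320, chr19:8308359-8308608, minus strand: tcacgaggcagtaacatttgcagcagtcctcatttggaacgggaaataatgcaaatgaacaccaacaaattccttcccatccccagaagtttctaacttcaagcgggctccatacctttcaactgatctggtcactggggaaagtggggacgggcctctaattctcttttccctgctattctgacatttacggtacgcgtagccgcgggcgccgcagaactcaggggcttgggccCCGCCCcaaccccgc
CD5L held GAGGAA matches at -234 and -106 and a CCAAT match at -46, and CD320 a GC box at -15. The shares of all promoters given above apply to these motifs too. In this list the other 5 genes had log2 fold changes of -0.13 to 0.44 and adjusted p of 0.188 or more. CD209, the lectin DC-SIGN of dendritic cells, had the highest of these (0.44, uninduced RhoH against GFP), which passed with array weights (0.0449).

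Among 13 receptors of T and NK cells, 0 passed with 4-OHT in RhoH cells and 0 in induced RhoH against GFP. In uninduced RhoH against GFP 2 were lower (medians 0.04, 0.06 and 0.05 in the 3 comparisons). Over all named genes 3.78%, 4.49% and 15.3% passed, the last with 9.27% lower. CD4, the T cell co-receptor that monocytes also carry, had 9.08, 9.03 and 9.27 in induced RhoH, 8.53, 8.91 and 8.93 in uninduced RhoH, and 9.40, 9.44 and 9.36 in GFP. The groups did not overlap. The log2 fold change was -0.61 for uninduced RhoH against GFP (1.53-fold, SE 0.12, adjusted p = 0.00571), 0.33 with 4-OHT (adjusted p = 0.196) and -0.28 for induced RhoH against GFP (0.280, and 0.0411 with array weights).

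CD226, an activating receptor of NK and T cells, had 5.76, 5.81 and 5.69 in induced RhoH, 5.59, 5.62 and 5.54 in uninduced RhoH, and 6.05, 5.90 and 5.89 in GFP. The gaps were small. Uninduced RhoH was lower than GFP by -0.36 (SE 0.08, adjusted p = 0.0136), a call lost without uninduced RhoH replicate 3 (0.0560) or GFP replicate 1 (0.0691). The other 11, among them CD28, CD69, CD5 and CD27, had log2 fold changes of at most 0.227 in size and adjusted p of 0.175 or more. Of the T cell markers CD2 and LCK were measured, with array means of 5.48 to 5.81 in induced RhoH, 5.55 to 5.73 in uninduced RhoH and 5.51 to 5.57 in GFP and no call.

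The B cell genes CD72 and CD22 passed nowhere. CD72, an inhibitory co-receptor, had 5.70, 5.35 and 5.36 in induced RhoH, 5.31, 4.92 and 5.01 in uninduced RhoH, and 4.95, 5.11 and 4.84 in GFP. Induced RhoH lay above both other groups, by 0.39 and 0.50 (adjusted p = 0.196 and 0.0747). The second passed in 3 alternatives, among them without uninduced RhoH replicate 1 (0.0439) and with array weights (0.0335). The 5 CD1 genes, which present lipids to T cells, passed nowhere either. Their log2 fold changes ran from -0.26 to 0.37, both of them in CD1E, with adjusted p of 0.138 or more.

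Of 9 progenitor, mucin-like and lipid-anchored antigens, 0 passed with 4-OHT in RhoH cells, where 3.78% of all named genes did. Higher than in GFP were 2 in induced RhoH (1.74% of all named genes) and 2 in uninduced RhoH (6.01%). The medians were -0.01, 0.00 and 0.07 in the 3 comparisons. The calls against GFP were CD99 and CD24 in both. CD99, an adhesion molecule used in leukocyte passage through endothelium, had 8.58, 8.53 and 8.98 in induced RhoH, 8.90, 8.99 and 8.85 in uninduced RhoH, and 7.74, 7.97 and 8.16 in GFP. All 6 RhoH arrays lay above GFP, and the RhoH groups overlapped. Its log2 fold change against GFP was 0.74 in induced RhoH (1.68-fold, adjusted p = 0.0161, and 0.0782 and 0.0740 without GFP replicates 1 and 2) and 0.96 in uninduced RhoH (1.95-fold, adjusted p = 0.00115). With 4-OHT in RhoH cells it was -0.22 (adjusted p = 0.600).

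CD24, a small mucin-like protein anchored by lipid, had 8.98, 9.02 and 8.98 in induced RhoH, 8.95, 9.14 and 9.12 in uninduced RhoH, and 8.12, 8.53 and 8.32 in GFP. Again both RhoH groups lay above GFP and overlapped each other. The log2 fold change was 0.67 in induced RhoH (adjusted p = 0.00741) and 0.75 in uninduced RhoH against GFP (adjusted p = 0.00117), and -0.08 with 4-OHT (0.871). RefSeq lists 5 pseudogene copies of CD24, so its probe set may also read them and the value is uncertain.

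The other 7 of this list passed nowhere. CD52, a short glycoprotein of lymphocytes and monocytes, had 7.33, 6.63 and 6.58 in induced RhoH, 6.77, 6.27 and 6.01 in uninduced RhoH, and 6.86, 6.77 and 6.98 in GFP. Both RhoH groups had their highest value in replicate 1, and without these 2 arrays uninduced RhoH was lower than GFP (-0.73, adjusted p = 0.00271, against -0.52 and 0.175 with them), as it was with array weights (0.00124). CD38, an enzyme that consumes NAD, had 5.04, 6.17 and 6.17 in induced RhoH, 5.22, 5.26 and 5.94 in uninduced RhoH, and 5.39, 5.39 and 5.11 in GFP. Induced RhoH against GFP was 0.50 (adjusted p = 0.464) and 0.87 without both RhoH replicate 1 arrays (0.0430). CD109, a lipid-anchored antigen of platelets and activated T cells, was nearest to the threshold, at -0.36 in uninduced RhoH against GFP (adjusted p = 0.0553), and passed in 6 of 19 alternatives. These were leaving out induced RhoH replicate 1 (0.0292) or 2 (0.0399), median centring (0.0445), quantile normalization again (0.0366), array weights (0.0135) and only the 6 arrays compared (0.0246). CD99L2, a relative of CD99, had -0.28 in the same comparison (adjusted p = 0.123) and passed without induced RhoH replicate 3 (0.0454), with array weights (0.0265) and with only the 6 arrays compared (0.0484).

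CD2AP, an adaptor that links membrane proteins to the cytoskeleton, had 9.19, 9.22 and 9.12 in induced RhoH, 8.60, 8.98 and 8.95 in uninduced RhoH, and 9.24, 9.29 and 9.33 in GFP. Uninduced RhoH lay below both other groups. It was lower than GFP by -0.45 (SE 0.11, adjusted p = 0.0180), a call lost without GFP replicate 2 (0.0677) or 3 (0.0762). CD2BP2, a splicing factor component, and the pseudogene CD99P1 passed nowhere.

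**Figure D4:**
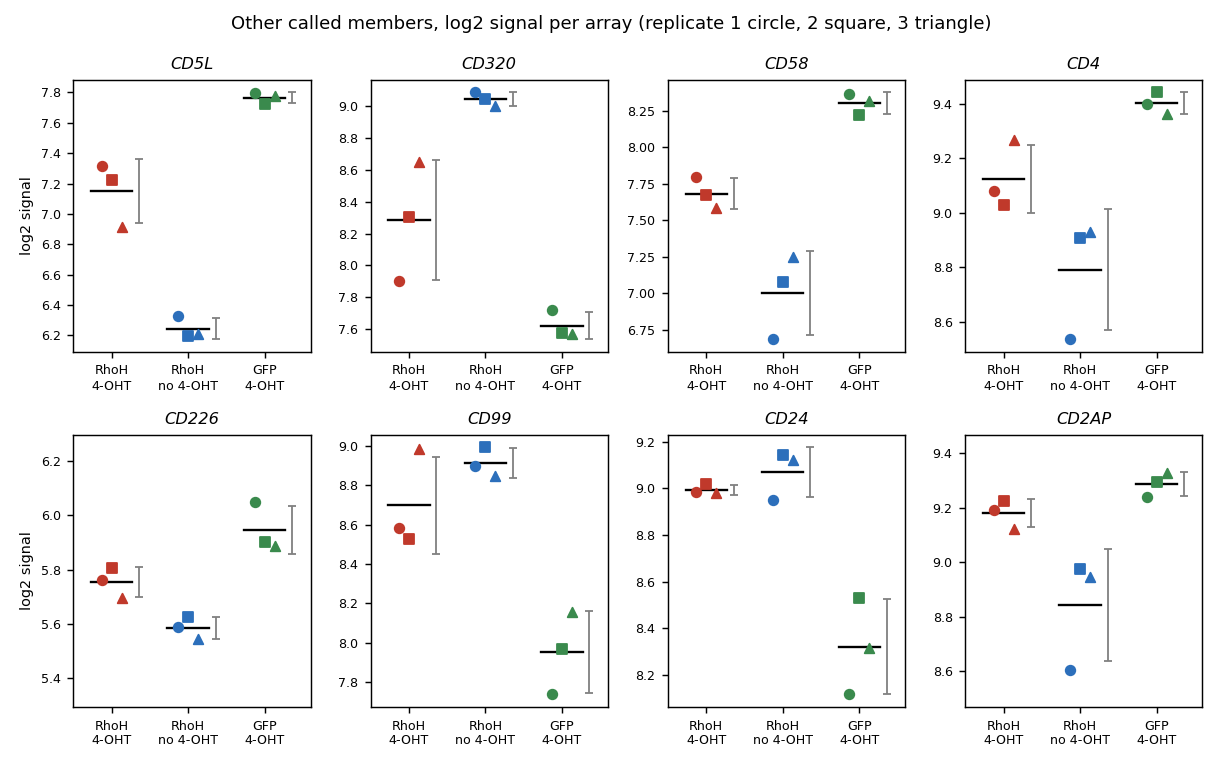
Log2 signal (y axis, scaled per gene) of the 8 other called members on each array by group, with the group mean as a line and its SD (n = 3) as a bar beside it. CD320, CD99 and CD24 are lowest in GFP, and CD5L, CD58, CD4, CD226 and CD2AP are lowest in uninduced RhoH.

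Of 32 listed ligands and partners of these antigens 19 were measured. With 4-OHT in RhoH cells 3 rose and 1 fell (median 0.13), against 3.02% and 0.751% of all named genes. In induced RhoH against GFP 0 were higher and 1 lower (median -0.03), against 1.74% and 2.75%. In uninduced RhoH against GFP 2 were higher and 6 lower (median -0.24), against 6.01% and 9.27%. Each of the 2 higher calls was lost in 6 of 19 alternatives. HP, haptoglobin, whose complex with haemoglobin is taken up by CD163, rose by 1.46 with 4-OHT (adjusted p = 3.41e-05). It was lower than in GFP by -1.13 in induced RhoH (adjusted p = 0.000148) and by -2.58 in uninduced RhoH (adjusted p = 2.46e-07). The other calls with 4-OHT in RhoH cells were less stable. SIGLEC10, a receptor for CD24, was higher by 0.76 (adjusted p = 0.0220), lost in 6 of 19 alternatives, among them leaving out induced RhoH replicate 1 or 3 or uninduced RhoH replicate 2 or 3 (0.0541 to 0.0768). TCN2, the transcobalamin that CD320 binds, was higher by 0.45 (0.0356), lost in 12 of 19, among them leaving out any array but induced RhoH replicate 2 (0.0525 to 0.116). TRAF3, a signalling adaptor of TNF-family receptors, was lower by -0.43 (0.0491), lost in 12 of 19, among them leaving out induced RhoH replicate 1 or 3, uninduced RhoH replicate 2 or 3 or any GFP array (0.0901 to 0.181). TYROBP, the signalling adaptor of activating myeloid receptors, was lower in uninduced RhoH than in GFP by -0.73 (adjusted p = 0.00516), as was PILRA, an inhibitory myeloid receptor, by -0.80 (0.00175). NECTIN2, of the same list, was lower in that comparison by -0.82 (adjusted p = 0.0273), a call lost in 7 of 19 alternatives.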

How the data were processed

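Total RNA of 9 HL-60 clone 15 samples (3 per group) was labelled and hybridised to Affymetrix arrays, per the labels' protocols. The deposited table holds log2 values per probe set and array. The submitters' processing notes name Affymetrix Power Tools, RMA and limma, and versions and genome build are not given in the sources used here. Of 43550 probe sets, 15659 had 1 gene symbol in the platform annotation and 27891 none, which gave 14778 named genes after keeping the probe set with the highest mean over the 9 arrays. CD177 alone among the members had another probe set, and the 2 read differently. Against GFP, the one used differed by -0.005 in induced and 0.081 in uninduced RhoH. The other, dimmer one differed by 0.271 and 0.36. Group means were compared with limma 3.58.1 in R 4.3.3 on all 9 arrays, with p-values adjusted by Benjamini-Hochberg over all named genes and a threshold of 0.05. A moderated F test covered the 3 groups. The fit was tested on simulated data. These had independent normal noise, the same SD for a gene on every array, and changes in induced RhoH alone. The real arrays differed in spread and some same-numbered ones were correlated, so the rates need not hold for them. For induced against uninduced RhoH, it recovered 39 of 100 genes changed by 0.5 on the log2 scale and 96 of 100 changed by 1. For induced RhoH against GFP it recovered 41 and 95 of 100. False calls numbered 7 and 5 in these 2 simulated comparisons. A gene that changed by about 0.5 can fail to pass, as many did in the simulation. Alternatives changed normalization, probe set choice, the genes tested, dim-gene filter, spread estimate, weights, pairing and the arrays included. Members and lists were chosen with earlier results of these data known. By the rule for names, RHOH, members within role lists, members called in a comparison, the 6 brightest members and, per list, up to 4 uncalled members or called partner genes with the highest absolute fold change were named. Arrays give signals and no counts. The 3 arrays per group limit precision. The p-values set a difference of group means against the spread between these samples, estimated within the groups.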

Additional observations from a re-analysis of the deposited data

How the results depend on the processing

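The 37 member calls gave 703 results under alternatives, of which 642 kept their direction and side of the threshold, 61 kept their direction but missed the threshold, and 0 reversed. Member comparisons without a call passed the threshold in 36 further results, 6 of them CD109 in uninduced RhoH against GFP. Of the calls, 5 of 9 with 4-OHT in RhoH cells, 4 of 10 in induced RhoH against GFP and 16 of 18 in uninduced RhoH against GFP were kept in every alternative run. With 4-OHT in RhoH cells, 5 members passed when only the 6 arrays compared were fitted, and 6 to 9 when single arrays were left out. In induced RhoH against GFP, leaving out single arrays gave 4 to 10, with 6 without induced RhoH replicate 2 and 4, 4 and 5 without GFP replicates 1, 2 and 3. In uninduced RhoH against GFP it gave 17 to 20, and for any difference among the groups 13 to 19. Array weights gave more, with 26 in uninduced RhoH against GFP, 14 in induced RhoH against GFP and 22 for any difference. Quantile normalization again gave 22, 12 and 21. With 4-OHT in RhoH cells both gave 9. The labels give the replicate numbers no meaning, and the numbers were taken to pair samples only if all same-numbered pairs correlated over 0.1. They did in 6 of 9 (-0.026 to 0.543), all pairs of replicates 1 and 2 but none of replicate 3. Of the arrays, 5 of 9 correlated best with their own number. Between induced and uninduced RhoH the pairs were at 0.543, 0.368 and 0.065 for replicates 1, 2 and 3. The main fit therefore took no account of pairing. With the replicate block, 9, 10 and 19 members passed in the 3 comparisons and 20 in the test over the groups. In induced RhoH against GFP the block lost CD320 (0.0525) and gained CD72 (0.0446), and in uninduced RhoH against GFP it gained CD300LD (0.0338). Counts over all named genes ranged from 190 to 953 around 558, from 279 to 1176 around 664, from 1450 to 4326 around 2258 and, over the 3 groups, from 1116 to 3390 around 1837. The causes were not tested. Signal over background was not available, and 16 members lay in the dimmest 25% of named genes.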

Other observations

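Many CD antigens are known under other gene symbols, and of 54 listed 28 were measured. With 4-OHT in RhoH cells 3 rose and 0 fell (median log2 fold change 0.12), against 3.02% and 0.751% of all named genes. SIGLEC6, a sialic acid-binding receptor, rose by 2.62 (6.14-fold, SE 0.19, adjusted p = 7.39e-05) and KIT, the stem cell factor receptor of progenitors and mast cells, by 0.67 (adjusted p = 0.0029). SIGLEC7, an inhibitory receptor of the same kind as SIGLEC6, rose by 0.49 (adjusted p = 0.0410), a call lost in 11 of 19 alternatives, among them leaving out induced RhoH replicate 1 or 2, uninduced RhoH replicate 2 or 3 or any GFP array (0.0671 to 0.131).

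In induced RhoH against GFP, 4 were higher and 4 lower (median 0.04), against 1.74% and 2.75% of all named genes. CEACAM8 and CEACAM6, adhesion molecules of granulocytes, were higher by 2.49 (5.63-fold, adjusted p = 6.1e-06) and 1.10 (adjusted p = 0.000483), and FLT3, a receptor of progenitors, by 1.00 (adjusted p = 0.00606). SIGLEC7 was lower by -0.99 (adjusted p = 0.000908). In uninduced RhoH against GFP, 6 were higher and 8 lower (median -0.04), against 6.01% and 9.27% of all named genes. A higher call was lost in 6 of 19 alternatives and a lower one in 8 of 19. SIGLEC6 was lower by -3.09 (8.50-fold, adjusted p = 4.89e-06) and SIGLEC7 by -1.48, and CEACAM8 was higher by 2.50 and CEACAM6 by 1.28.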
